A study of Mus musculus with 18 samples.

Results

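The replication and mitosis genes are 42 genes, listed by name, that copy the chromosomes or separate them. A total of 41 of them could be read from at least 1 probe set of the array, of 18193 genes in all. The list is one of names, with no threshold on a measured value, but it was drawn up with earlier results of these data known. They comprise 16 genes of S phase, 23 genes of G2 and mitosis and 2 checkpoint kinases, Chek1 and Wee1. The missing gene is Ccnb1, a mitotic cyclin, which is not analysed here because no probe set carries its name alone in the annotation used. Each gene was read from its brightest probe set, and 31 of the 41 genes have further probe sets.

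Total RNA of mouse embryonic stem cells (grown in serum with LIF) was hybridised to 18 Affymetrix arrays, 3 labelled as biological replicates in each of 6 groups. Plasmids had been introduced by lipofection in 4 groups: an empty vector, Foxd3, CA-NFATc3 and both together. CA commonly stands for constitutively active, and NFATc3 is a transcription factor that calcineurin activates. The other 2 groups were Foxd3fl/fl:Cre-ERT cells, in which Foxd3 can be deleted, given DMSO or given tamoxifen for 2 days. The labels name the CGR8 line and plasmid transfection for all 18 arrays, and whether the knockout cells derive from CGR8 or were transfected could not be settled. Tamoxifen activates the Cre recombinase, which deletes the forkhead transcription factor Foxd3 in these cells. The sources used here do not name the promoter driving Cre-ERT, the number of clones or any feeder cells. All 6 knockout arrays carry the floxed alleles and Cre-ERT, and no tamoxifen-treated cells without them were analysed, so the action of tamoxifen itself and loss of Foxd3 cannot be told apart. The Foxd3 signal was 443 ± 55.9 (SD, n = 3) with vector and 237 ± 5.95 in the arrays labelled Foxd3, which is against the label. It was 451 ± 38.6 with CA-NFATc3, 234 ± 37.7 with both, 219 ± 25.9 with DMSO and 31.4 ± 29.6 with tamoxifen. The Nfatc3 signal was 1581 ± 31.4 with vector and 1732 ± 58.5 with CA-NFATc3 (limma adjusted p = 0.352). It was 1817 ± 28.6 with both (limma adjusted p = 0.101 against vector). Whether the Foxd3 and Nfatc3 probe sets read the plasmid transcripts was not tested. Groups are therefore called by their labels, and any direction for the Foxd3 plasmid holds for the label only.

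Before a cell divides, origins of replication are licensed by Cdc6 and Cdt1, which load the Mcm2 to Mcm7 helicase ring. In S phase Cdc45 and the GINS complex switch that ring on, Pcna clamps the polymerases to DNA, and ribonucleotide reductase (Rrm1, Rrm2) and Tyms supply nucleotides. In mitosis Cdk1 with its cyclins, Plk1 and the Aurora kinases drive entry, spindle assembly and the separation of chromatids, while Bub1, Bub1b, Mad2l1 and Ttk hold back Cdc20 until every chromosome is attached. Many S-phase genes are controlled by E2F factors through an E2F motif. Many mitotic genes are controlled through CCAAT boxes, bound by NF-Y, and the cell cycle homology region (CHR), bound by the DREAM and MuvB complexes. Mouse embryonic stem cells have a short G1 phase and spend most of their cycle replicating DNA, so both gene classes are normally abundant in them.

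The promoters of the 2 classes carry these motifs in different shares, and the choice of genes did not use them. Printed below are 150 bases upstream of the start for 3 mitotic and 3 S-phase genes, 5′ to 3′ on the gene's own strand, from RefSeq (assembly GRCm38.p6), with every match to a searched motif in capitals. Searched on both strands were CCAAT, the CHR as TTTGAA or TTCGAA, and the E2F motif as TTTGGCGC, TTTCCCGC, TTTGCCGC or TTTCGCGC. A match on the other strand reads as the reverse complement, ATTGG for CCAAT. Cdk1, the main mitotic kinase, lies at chr10:69352913-69353062 on the minus strand, and Cdc20, which activates the ligase that ends mitosis, at chr4:118437344-118437493 on the minus strand. Mki67, which coats mitotic chromosomes, is shown at chr7:135716430-135716579 on the minus strand, from base 200 to base 51 before its start. Mcm6 of the helicase ring lies at chr1:128359706-128359855 on the minus strand, the loader Cdc6 at chr11:98908001-98908150 on the plus strand, and Mcm7 at chr5:138171934-138172083 on the minus strand, from base 200 to base 51 before its start.
Cdk1: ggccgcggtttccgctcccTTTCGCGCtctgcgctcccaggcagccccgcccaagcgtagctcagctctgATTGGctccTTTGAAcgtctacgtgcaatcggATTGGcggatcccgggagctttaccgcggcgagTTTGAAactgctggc
Cdc20: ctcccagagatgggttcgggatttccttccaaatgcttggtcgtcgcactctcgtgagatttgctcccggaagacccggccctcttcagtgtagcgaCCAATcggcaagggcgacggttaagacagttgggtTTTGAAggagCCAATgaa
Mki67: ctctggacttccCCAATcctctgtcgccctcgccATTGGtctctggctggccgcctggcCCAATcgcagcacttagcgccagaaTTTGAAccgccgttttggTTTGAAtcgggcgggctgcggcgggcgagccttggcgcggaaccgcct
Mcm6: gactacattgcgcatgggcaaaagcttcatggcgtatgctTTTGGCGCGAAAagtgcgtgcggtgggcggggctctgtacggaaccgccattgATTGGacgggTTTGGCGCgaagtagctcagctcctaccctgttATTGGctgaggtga
Cdc6: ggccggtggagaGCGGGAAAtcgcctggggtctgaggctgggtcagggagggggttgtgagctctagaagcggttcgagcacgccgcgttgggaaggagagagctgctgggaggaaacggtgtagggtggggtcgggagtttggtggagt
Mcm7: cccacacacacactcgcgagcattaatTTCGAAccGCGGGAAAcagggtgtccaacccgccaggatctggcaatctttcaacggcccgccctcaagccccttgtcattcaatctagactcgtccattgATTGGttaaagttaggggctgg
The stretches of Cdk1, Cdc20 and Mki67 each hold CCAAT boxes and at least 1 CHR, and that of Cdk1 also holds 1 E2F motif. The stretch of Mcm6 holds 3 E2F matches, a pair of them overlapping, and 2 CCAAT boxes but no CHR. That of Cdc6 holds 1 E2F match only, and that of Mcm7 holds 1 match of each motif.

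Over the 34 genes found in the promoter table (13 S-phase, 20 mitotic and 1 checkpoint gene; 250 bases before to 50 after the start), the CHR was found in 15 of 20 mitotic promoters (75%) and in 3 of 13 S-phase promoters (23.1%). The share over all 27025 genes of the table was 21.7%. CCAAT was found in 18 of 20 mitotic promoters (90%), 9 of 13 S-phase promoters (69.2%) and 41.1% of all genes. All 15 mitotic promoters with a CHR also held a CCAAT box, a combination in 9.65% of all genes. The E2F motif showed the opposite order, with 6 of 13 S-phase promoters (46.2%), 1 of 20 mitotic promoters (5%), that of Cdk1, and 2.6% of all genes. The 6 S-phase genes are Mcm3, Mcm5, Mcm6, Mcm7, Cdc6 and Cdt1. With only the bases before the start, the mitotic share with a CHR was 40% and the S-phase share with an E2F motif 30.8%. These are letter matches in a fixed window and not measured binding sites.

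In the Foxd3 conditional knockout cells, most replication and mitosis genes fell after 2 days of tamoxifen. Of the 41 genes, 26 were lower and 0 higher (limma on log2 of the signal plus 32, Benjamini-Hochberg adjusted p under 0.05 over 12093 genes). Over all genes tested, 16.9% were lower and 17.5% higher. At an unadjusted p under 0.05 in limma the count was 31 of the 41, with no share of all genes at that threshold given here. The 26 falls lay between -0.12 and -0.87 on the log2 scale, with a median of -0.29. The median over the 41 genes was -0.25, beside -0.01 over all genes. Among genes with a mean signal of at least 1000, a level that 38 of the 41 genes reach, 26.8% were lower. In all 26 the 3 tamoxifen arrays lay below the 3 DMSO arrays, though a call on these same arrays favours such a separation. Among the 41 genes, called or not, it was seen in 33, against 23.9% of all genes. In 1 gene, Aurka, there was no overlap in the other direction, against 23.5% of all genes. Signals were scaled to the same trimmed mean in every array, so each change is relative to the rest of the transcripts. In bulk RNA, fewer cells in cycle and less of a transcript per cell cannot be told apart.

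**Figure D1:**
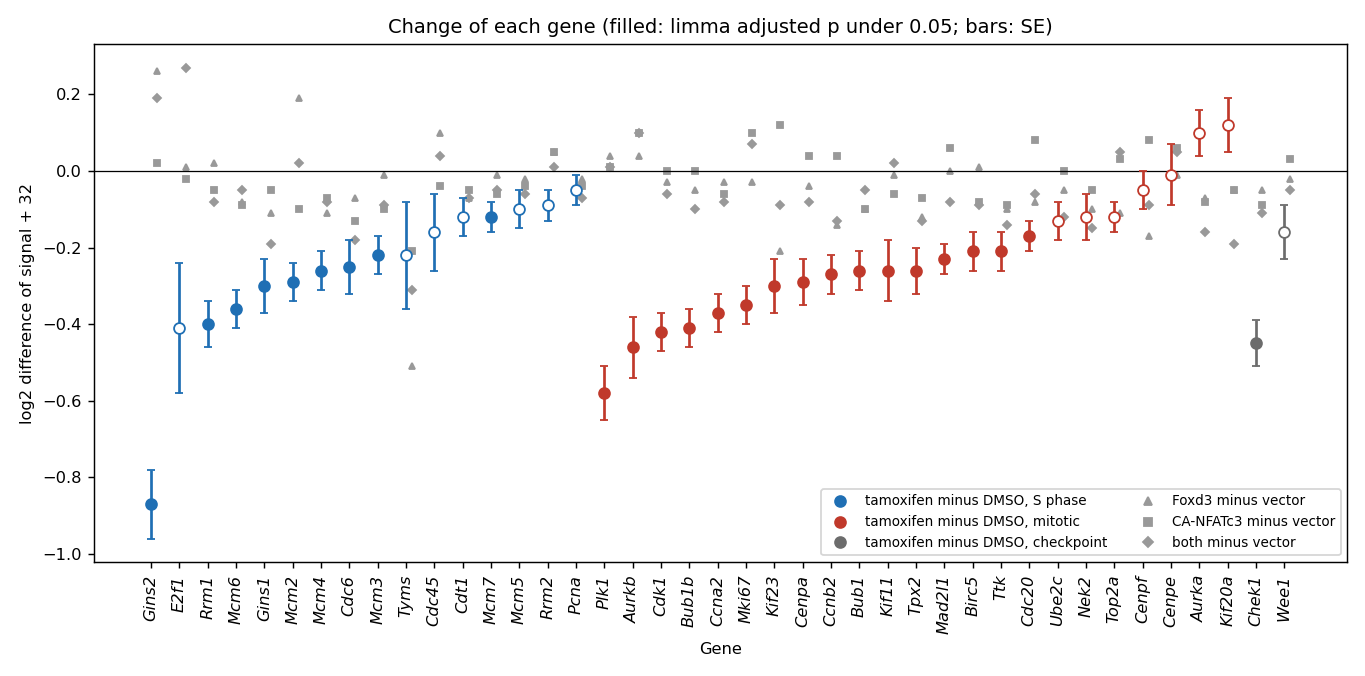
Log2 difference of signal plus 32 (vertical axis) for each of the 41 genes (horizontal axis), tamoxifen minus DMSO as coloured circles with the SE of the limma fit (filled where the adjusted p was under 0.05) and the 3 plasmid groups minus vector as grey marks. The 26 filled circles lie between -0.12 and -0.87, while the grey marks lie between -0.51 and 0.27.

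Other signals moved beside these falls. The fibroblast markers were higher in 8 of 8 genes, with a median log2 change of 1.73, and their summed signal went from 2123 to 2513 across the DMSO arrays to 12375 to 14238 across the tamoxifen arrays (224 to 319 with vector). The largest rise was that of Dcn, a proteoglycan of connective tissue (3.54 ± 0.18, limma adjusted p = 6.37e-08). Of 8 stem cell markers 3 fell, Tdgf1 by 0.49, Pou5f1 by 0.19 and Sox2 by 0.17 on the log2 scale, with a median of -0.14, and the summed signal of the list went from 89258 to 91083 down to 78572 to 83096. Of the trophectoderm markers 2 of 4 tested fell, and of the primitive endoderm markers 3 of 5 tested rose. The shares over all genes were 16.9% lower and 17.5% higher. The ratio of 3' to 5' actin signal, a sign of RNA quality, was 2.24, 2.16 and 2.06 with DMSO and 1.89, 1.89 and 1.9 with tamoxifen. The same ratio for Gapdh overlapped, with 1.04, 0.978 and 1.02 with DMSO and 0.999, 1.02 and 1.03 with tamoxifen. The part of these shifts in the falls of replication and mitosis genes was not tested. Among inhibitors of cyclin-dependent kinases, Cdkn1a (0.68 ± 0.06), Cdkn2a (0.88 ± 0.13) and Cdkn2b (0.76 ± 0.10) rose, Cdkn1b (-0.65 ± 0.10) and Cdkn1c (-0.59 ± 0.10) fell, and Cdkn2d did not pass (-0.14 ± 0.13, limma adjusted p = 0.437).

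**Figure D2:**
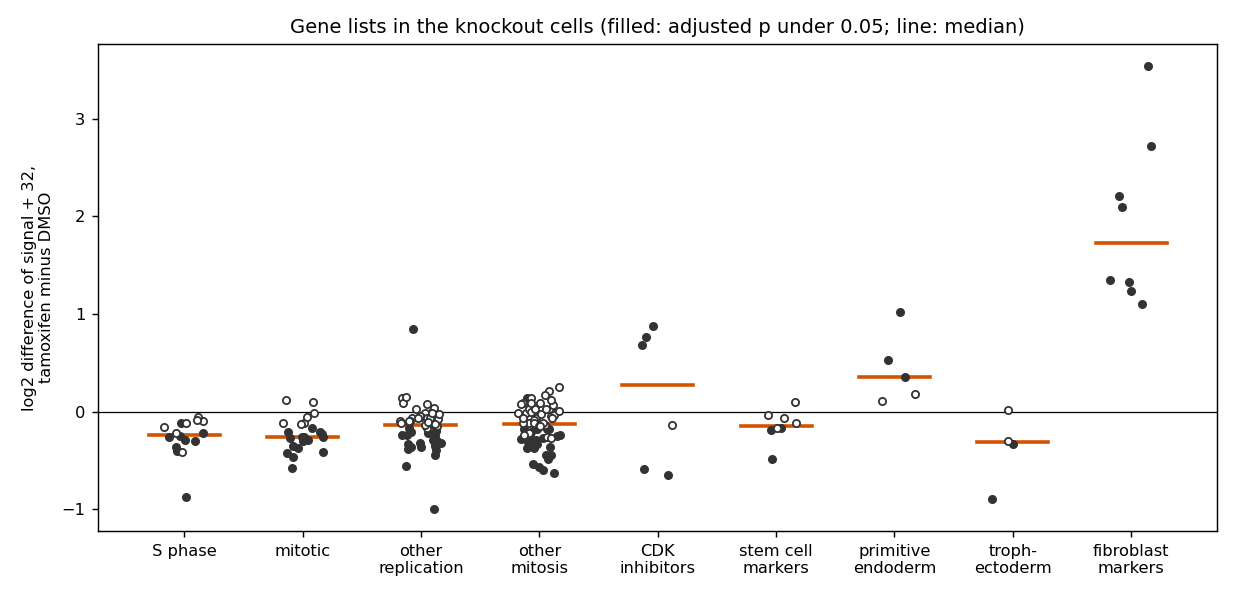
Log2 difference of signal plus 32, tamoxifen minus DMSO (vertical axis), for the genes of 9 lists (horizontal axis); each point is a gene, filled where the adjusted p was under 0.05, and the line is the list's median. The median of the fibroblast markers is 1.73, that of the stem cell markers -0.14, and those of the S-phase and mitotic genes -0.24 and -0.26.

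Among the genes that license and fire origins, the largest fall was that of Gins2, a subunit of the GINS complex. Its signal was 1656, 1987 and 1815 in the DMSO arrays and 949, 907 and 1076 in the tamoxifen arrays. The highest tamoxifen array was well under the lowest DMSO array, and the log2 change was -0.87 ± 0.09 (limma adjusted p = 1.68e-05), a 1.83-fold decrease. The other Gins2 probe set gave -0.99 ± 0.09. Gins1, of the same complex, had signals of 3135, 2774 and 2711 with DMSO and 2158, 2505 and 2326 with tamoxifen, without overlap (-0.30 ± 0.07, limma adjusted p = 0.00865).

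Of the 6 helicase subunits, 5 fell on their brightest probe sets. Mcm6 had signals of 7543, 7905 and 7415 with DMSO and 5804, 5909 and 6071 with tamoxifen (-0.36 ± 0.05, limma adjusted p = 0.000132). Mcm2 had 5072, 4971 and 4655 with DMSO and 4006, 4042 and 3926 with tamoxifen (-0.29 ± 0.05, limma adjusted p = 0.00111). In both genes the groups stood apart, and the tamoxifen arrays lay close together. Mcm4 (-0.26 ± 0.05) and Mcm3 (-0.22 ± 0.05) also passed the test. Mcm7 passed narrowly (-0.12 ± 0.04, limma adjusted p = 0.0394), and its 3 other probe sets gave -0.29, -0.21 and -0.27. Mcm5, the remaining subunit of the ring, did not pass (-0.10 ± 0.05, limma adjusted p = 0.146), with tamoxifen arrays at 11932, 11365 and 12238 that overlapped the DMSO arrays at 13334, 11856 and 13064. Of the loaders, Cdc6 fell (-0.25 ± 0.07, limma adjusted p = 0.0116), while Cdt1 was at -0.12 ± 0.05 (limma adjusted p = 0.0586). The call of Cdc6 was lost without the second DMSO array or the third tamoxifen array (adjusted p up to 0.0569). Cdc45, which joins GINS on the helicase, was at -0.16 ± 0.10 and overlapped between the groups.

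In nucleotide supply, 1 of 2 subunits of ribonucleotide reductase fell on its brightest probe set. Rrm1, the large subunit, had signals of 5149, 5404 and 5735 with DMSO and 4239, 3943 and 4145 with tamoxifen (-0.40 ± 0.06, limma adjusted p = 0.000224). Rrm2, the small subunit, was at -0.09 ± 0.04 (limma adjusted p = 0.137), with a 95% interval of -0.18 to 0.01. Tyms, thymidylate synthase, was read by a dim probe set of 180 with DMSO and 149 with tamoxifen, and did not pass (-0.22 ± 0.14). Pcna, the polymerase clamp, showed the smallest difference of the S-phase genes, with 18510, 17452 and 18265 in the DMSO arrays and 17357, 16987 and 18120 in the tamoxifen arrays. These overlapped, and the log2 change was -0.05 ± 0.04 with an interval of -0.14 to 0.05.

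E2f1, the E2F factor of the list, had signals of 465, 554 and 601 with DMSO and 376, 302 and 544 with tamoxifen. The third tamoxifen array lay among the DMSO arrays, and the change did not pass (-0.41 ± 0.17, limma adjusted p = 0.0877). Another E2f1 probe set, with 388, 500 and 365 against 174, 260 and 258, stood apart and passed (-0.78 ± 0.16, adjusted p = 0.00338 over all probe sets), so the probe sets of this gene disagree on the call. In all, 9 of the 16 S-phase genes fell (56.2%) and all 16 had a negative change, with a median of -0.24.

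Among the mitotic genes, the largest falls were those of the kinases Plk1, Aurkb and Cdk1. Plk1, polo-like kinase, had signals of 1835, 1648 and 1741 with DMSO and 1155, 1125 and 1186 with tamoxifen. The groups were far apart relative to their spread (-0.58 ± 0.07, limma adjusted p = 5.75e-05, a 1.49-fold decrease). Cdk1 had 7409, 7430 and 7032 with DMSO and 5423, 5381 and 5459 with tamoxifen (-0.42 ± 0.05, limma adjusted p = 3.22e-05). Its partner Ccna2, a cyclin of S phase and G2, had 4559, 4610 and 4531 with DMSO and 3590, 3423 and 3602 with tamoxifen (-0.37 ± 0.05, limma adjusted p = 0.000173). In both the 3 arrays of a group were nearly alike. A second Ccna2 probe set gave -0.02 ± 0.07 and did not pass. The mitotic cyclin Ccnb2 fell by 0.27 ± 0.05 on the log2 scale (limma adjusted p = 0.00198).

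Of the Aurora kinases, Aurkb fell and Aurka was not called. Aurkb, the kinase of the chromosomal passenger complex, had signals of 1277, 1369 and 1404 with DMSO and 883, 1017 and 1012 with tamoxifen (-0.46 ± 0.08, limma adjusted p = 0.000863). Birc5, the survivin subunit of that complex, fell too (-0.21 ± 0.05, limma adjusted p = 0.00661). Aurka, the kinase of the spindle poles, had 1797, 1790 and 1827 with DMSO and 2001, 1836 and 1986 with tamoxifen, higher without overlap but not called (0.10 ± 0.06, limma adjusted p = 0.22). Tpx2, which activates Aurka on the spindle, fell (-0.26 ± 0.06, limma adjusted p = 0.00432).

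In the spindle assembly checkpoint 4 of 4 kinases and adaptors fell. Bub1b had signals of 3885, 3616 and 3828 with DMSO and 2758, 2918 and 2849 with tamoxifen (-0.41 ± 0.05, limma adjusted p = 0.000164). Bub1 (-0.26 ± 0.05), Mad2l1 (-0.23 ± 0.04) and the kinase Ttk (-0.21 ± 0.05) also passed without overlap. Their target Cdc20 fell by 0.17 ± 0.04 on the log2 scale, whereas Ube2c, which supplies ubiquitin to the same ligase, was at -0.13 ± 0.05 (limma adjusted p = 0.0872).

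Of the motors, Kif23, needed for cytokinesis, fell from 1924, 2071 and 2121 with DMSO to 1536, 1764 and 1650 with tamoxifen (-0.30 ± 0.07, limma adjusted p = 0.0062). Kif11, which pushes spindle poles apart, was at -0.26 ± 0.08 (limma adjusted p = 0.0256). Kif20a, also of cytokinesis, had 2694, 2380 and 2341 with DMSO and 2890, 2646 and 2541 with tamoxifen, which overlapped (0.12 ± 0.07, limma adjusted p = 0.21). Without the first DMSO array Kif20a was called higher (0.19 ± 0.06, limma adjusted p = 0.0431). At the centromere, Cenpa, the histone that marks it, fell (-0.29 ± 0.06, limma adjusted p = 0.00193). The motor Cenpe (-0.01 ± 0.08), the kinetochore protein Cenpf (-0.05 ± 0.05) and the centrosome kinase Nek2 (-0.12 ± 0.06) did not pass. A dim second probe set of Nek2 was higher (0.82 ± 0.23, adjusted p = 0.0213), with signals of 29, 54.9 and 57.2 against 133, 71 and 121.

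Mki67, the common marker of cycling cells, had signals of 6402, 6550 and 6797 with DMSO and 5181, 4966 and 5280 with tamoxifen (-0.35 ± 0.05, limma adjusted p = 0.000198). Top2a, which untangles sister chromatids, had 13661, 13134 and 12954 with DMSO and 11999, 12033 and 12601 with tamoxifen. These did not overlap, but the change did not pass (-0.12 ± 0.04, limma adjusted p = 0.0516). In all, 16 of the 23 mitotic genes fell (69.6%), and 21 had a negative change, with a median of -0.26.

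Of the checkpoint kinases, Chek1, which halts the cycle when replication stalls, had signals of 3229, 3019 and 2960 with DMSO and 2217, 2123 and 2383 with tamoxifen. All 3 tamoxifen arrays were lower (-0.45 ± 0.06, limma adjusted p = 0.000235). Its other probe sets gave 0.01 ± 0.22, -0.58 ± 0.15 and -0.15 ± 0.08. Wee1, which restrains Cdk1, was at -0.16 ± 0.07 (limma adjusted p = 0.0808).

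**Figure D3:**
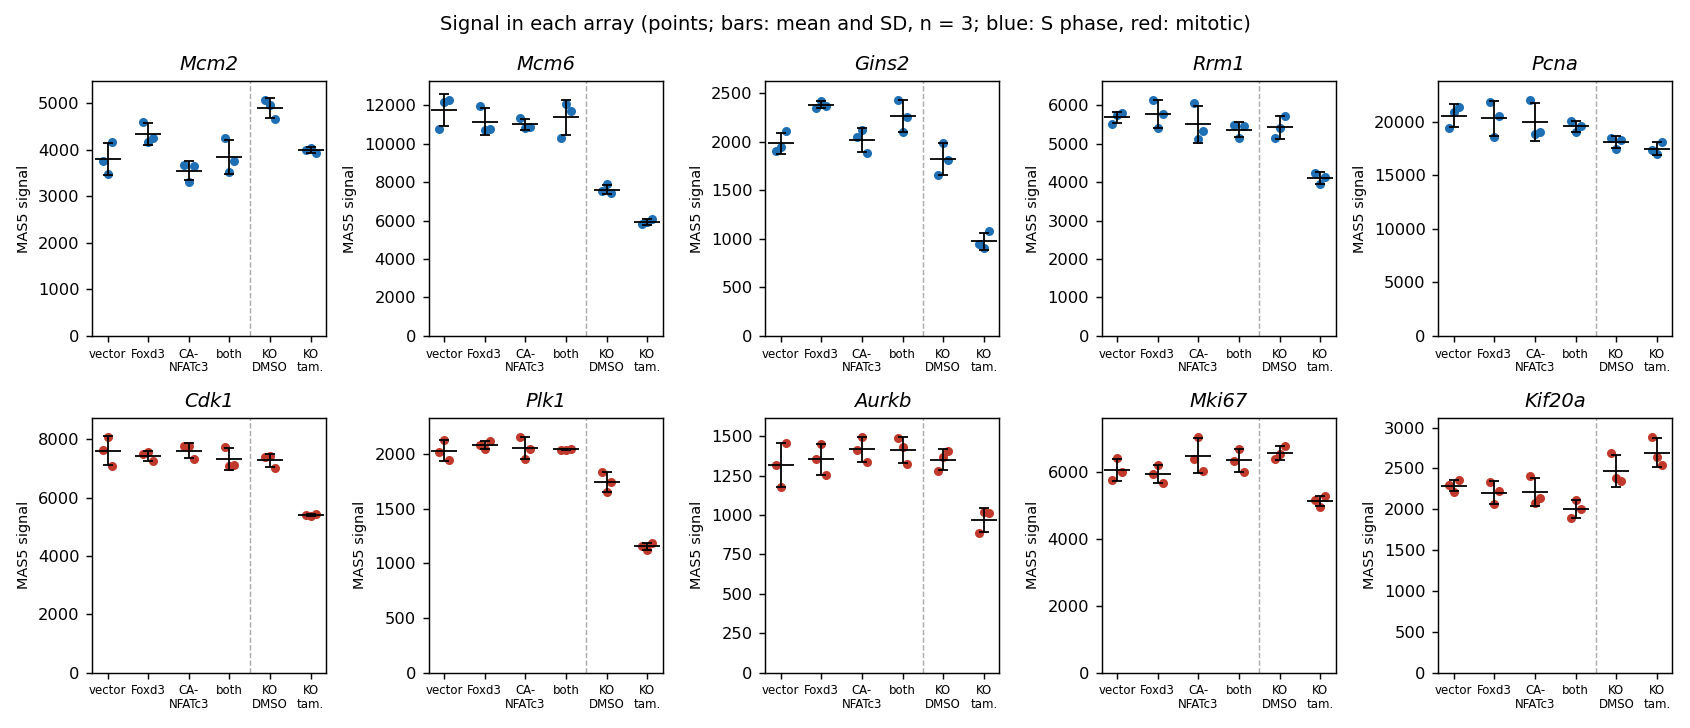
MAS5 signal (vertical axis, from 0) in each array of the 6 groups (horizontal axis) for 5 S-phase and 5 mitotic genes, with points for the arrays and bars for the mean and SD (n = 3); the dashed line separates transfected from knockout cells. The tamoxifen arrays lie below the DMSO arrays for Gins2, Mcm2, Mcm6, Rrm1, Cdk1, Plk1, Aurkb and Mki67, and overlap them for Pcna and Kif20a.

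Of the 26 calls, 16 held in all 16 settings tried. Averaging all probe sets of a gene left 18 of the 41 genes lower, with the calls of Bub1, Chek1, Gins1, Kif11, Kif23, Mcm6, Tpx2 and Ttk lost. Over all genes that setting called 3100 in either direction, beside 4165 in the main fit. Among the 43 further probe sets tested, which cover 28 genes, 18 were lower, 1 was higher and 36 had a negative change, with a median of -0.22. The share of all probe sets called is not given here, so these counts have no background of their own. Leaving out any 1 array left 24 to 26 of the 41 genes called, beside 2978 to 4366 over all genes in either direction. Mcm7 was called in 8 of the 16 settings, and its call was lost when any array other than the third DMSO array was left out, as was that of Kif11, called in 10 of 16. Calls were gained for Mcm5 without the second DMSO array (-0.16 ± 0.05, limma adjusted p = 0.0455), and for E2f1 (-0.62 ± 0.14, limma adjusted p = 0.0085), Cdt1 and Top2a without the third tamoxifen array.

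The S-phase and mitotic classes were also set against each other within each array. The mean log2 value of the 16 S-phase genes minus that of the 23 mitotic genes was 0.01, 0.05 and 0.06 in the DMSO arrays and 0.00, -0.03 and 0.04 in the tamoxifen arrays. These overlapped, with means of 0.04 ± 0.03 and 0.01 ± 0.04 (SD, n = 3). By promoter, the 15 mitotic genes with a CHR had a median change of -0.26, with 11 lower, and the 4 without one that were measured had -0.16, with 2 lower. The 6 S-phase genes with an E2F motif had a median of -0.17, with 4 lower, and the 7 in the table without it had -0.22, with 2 lower. No test was made on these small groups.

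Other genes of the same processes were taken from lists of names. Of 51 further replication genes tested, 23 fell and 1 rose, with a median of -0.14. The largest falls were those of Pold2, a subunit of DNA polymerase delta, from 2379 to 1170 (a 2.01-fold decrease, limma adjusted p = 3.77e-07), Pola1, the catalytic subunit of polymerase alpha (-0.56 ± 0.06), and Orc3 of the origin recognition complex (-0.44 ± 0.06). The rise was that of Ticrr, which helps load Cdc45, from 1126 to 2044 (0.85 ± 0.12, limma adjusted p = 0.000268). Of 64 further mitosis genes tested, 25 fell and 1 rose (39.1% and 1.56%, beside the same shares of all genes), with a median of -0.13. The largest falls were those of Lmnb1, a lamin of the nuclear envelope (-0.63 ± 0.05), Ect2, which directs the cleavage furrow (-0.60 ± 0.05), and Pkmyt1, an inhibitory kinase of Cdk1 (-0.57 ± 0.16). Ckap2, a spindle protein, rose (0.14 ± 0.04, limma adjusted p = 0.0306).

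In the transfected cells, fitted without a replicate block, none of the 41 genes on its brightest probe set was called in any of the 6 contrasts. With the replicate number as a block, 3 of the 41 genes passed for Foxd3 against vector, beside 6.74% of all genes. For both plasmids against CA-NFATc3, 3 passed with the block, beside 10.8% of all genes. The other values in this paragraph come from the fit without the block. The shares of all 11609 genes called by limma, in either direction, were 2.88% for Foxd3, 5.86% for CA-NFATc3 and 4.82% for both plasmids, each against vector. They were 6.12% when Foxd3 was added to CA-NFATc3, 0.327% when CA-NFATc3 was added to Foxd3 and 0.81% for the interaction. At an unadjusted p under 0.05 the genes numbered 5, 0, 3, 6, 1 and 0, in the same order. No share of all genes at that threshold is given here, so these counts stand without a background. The lowest adjusted p among the 246 tests was 0.0797. Of the 45 further probe sets of these genes, 1 was higher and 1 lower for both plasmids against CA-NFATc3, and none was called in the other 5 contrasts. They were a probe set of Chek1 (0.45 ± 0.10, limma adjusted p = 0.0174 over all probe sets) and one of Cdc20 (-0.35 ± 0.09, limma adjusted p = 0.0394). The share of all probe sets called in that contrast is not given here. The 95% interval of the change lay within 0.5 on either side of 0 on the log2 scale for 40, 40, 39, 39, 39 and 39 of the 41 genes, and within 0.25 for 27, 33, 24, 22, 28 and 17.

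For the arrays labelled Foxd3 against vector, the genes with the largest differences were Tyms, Gins2 and Kif23. The dim Tyms probe set read 96, 95 and 95.9 with vector and 41.8, 94.8 and 44.3 in the arrays labelled Foxd3 (-0.51 ± 0.21, limma adjusted p = 0.261), and its middle array labelled Foxd3 was close to vector. Gins2 read 1905, 1943 and 2107 with vector and 2351, 2421 and 2371 in the arrays labelled Foxd3, higher without overlap (0.26 ± 0.07, limma adjusted p = 0.0797). Kif23 read 1669, 1802 and 1679 with vector and 1434, 1589 and 1429, lower without overlap (-0.21 ± 0.08, limma adjusted p = 0.216). Mcm2 was at 0.19 ± 0.08, E2f1 at 0.01 ± 0.19, and Cdk1, Mki67 and Pcna at -0.03 ± 0.06, -0.03 ± 0.07 and -0.02 ± 0.07. Cdkn1c, a cyclin-dependent kinase inhibitor outside the list, rose in the same arrays by 2.28 on the log2 scale, from 306 to 1615.

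With the replicate number as a block, which in these arrays carries shared deviations, 3 of the 41 genes passed for Foxd3 against vector: Gins2 higher (limma adjusted p = 0.0367), Kif23 lower (0.0409) and Cenpf lower (-0.17 ± 0.05, 0.0486). Over all genes 6.74% passed with the block. Set against CA-NFATc3 alone, both plasmids with the block gave 3 lower genes, Kif23 (-0.21 ± 0.06, limma adjusted p = 0.0235), Ccnb2 (-0.17 ± 0.05, 0.0311) and Cenpf (-0.17 ± 0.05, 0.0367), with 10.8% of all genes called. These 2 comparisons share no array, so the mean of both differences was also tested, a choice made after seeing the data. There Gins2 was higher (0.21 ± 0.05, limma adjusted p = 0.0186), and Kif23 (-0.21 ± 0.06, limma adjusted p = 0.0238) and Cenpf (-0.17 ± 0.05, limma adjusted p = 0.0465) were lower. Over all genes 4.2% were higher and 4.81% lower in that mean, so the share of the 41 genes, 2.44% higher and 4.88% lower, is near the background. With the block Ccnb2 (-0.15 ± 0.03) and Cdc20 (-0.11 ± 0.03) were also lower and Mcm2 (0.15 ± 0.04) higher, beside 6.94% higher and 8.41% lower over all genes. The genes called in the mean already stood out in the comparisons it averages, so it is no independent support for them.

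For CA-NFATc3 against vector the largest differences were those of Tyms (-0.21), Cdc6 (-0.13) and Kif23 (0.12), with adjusted p from 0.515 to 0.717 in limma. The target Rcan1, a calcineurin inhibitor induced by NFAT, went from 1196 ± 60.6 to 3702 ± 776 in the same arrays. Cdk1 (0.00 ± 0.06), Mki67 (0.10 ± 0.07), Mcm2 (-0.10 ± 0.08), Pcna (-0.04 ± 0.07) and E2f1 (-0.02 ± 0.19) were not called. With both plasmids Rcan1 was 1441 ± 62.7, above vector without overlap but not called (0.26 ± 0.11, limma adjusted p = 0.224). It was not called there against Foxd3 either (0.45 ± 0.11, limma adjusted p = 0.158). Against CA-NFATc3 alone it was lower (-1.32 ± 0.11, limma adjusted p = 2.35e-06). The mean of the 2 CA-NFATc3 plasmid differences, added in the same way, called 0 of the 41 genes by limma, beside 4.07% higher and 0.792% lower over all genes. With the block it also called 0, beside 6.74% and 2.45%. At an unadjusted p under 0.05 these counts were 2 and 8, with no share of all genes at that threshold given here. For both plasmids against vector the largest were Tyms (-0.31), E2f1 (0.27 ± 0.19) and Gins1 (-0.19 ± 0.07, limma adjusted p = 0.155), while Cdk1 (-0.06 ± 0.06), Mki67 (0.07 ± 0.07), Mcm2 (0.02 ± 0.08) and Pcna (-0.07 ± 0.07) were not called. Against CA-NFATc3 alone they were E2f1 (0.29 ± 0.19), Kif23 (-0.21 ± 0.08) and Cenpf (-0.17 ± 0.07), with Cdk1 at -0.06 ± 0.06, Mki67 at -0.03 ± 0.07, Mcm2 at 0.11 ± 0.08 and Pcna at -0.03 ± 0.07. When probe sets were averaged, Cdc20 was lower in both against CA-NFATc3 (-0.23 ± 0.05, limma adjusted p = 0.00993), where its brightest probe set alone gave -0.14 ± 0.05 (limma adjusted p = 0.113).

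Adding CA-NFATc3 to Foxd3 gave the largest differences for E2f1 (0.25 ± 0.19), Tyms (0.20 ± 0.21) and Mcm2 (-0.18 ± 0.08), with limma adjusted p from 0.724 to 0.899. Cdk1 (-0.02 ± 0.06), Mki67 (0.10 ± 0.07) and Pcna (-0.05 ± 0.07) were not called there either. The interaction, the Foxd3 difference with CA-NFATc3 minus that without it, was largest for Tyms (0.41 ± 0.30), E2f1 (0.28 ± 0.27) and Bub1 (0.15 ± 0.08), with limma adjusted p from 0.705 to 0.879. It was -0.03 ± 0.09 for Cdk1, 0.00 ± 0.10 for Mki67, -0.08 ± 0.12 for Mcm2 and -0.01 ± 0.10 for Pcna.

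The calls in this paragraph come from the fit without the replicate block, and blocked calls of these genes are not given here. With the block, 96 of all genes passed for both against Foxd3 (38 without it) and 245 for the interaction (94 without it). Of the 51 further replication genes and 64 further mitosis genes, 0 and 2 passed for Foxd3 (0% and 3.12%, beside 2.88% of all genes), and 2 of each for CA-NFATc3 (beside 5.86%). For both plasmids 0 and 2 passed against vector (beside 4.82%) and 0 and 3 against CA-NFATc3 (beside 6.12%). Without the block none passed for both against Foxd3 or for the interaction, where 4 and 7 of these 115 genes had an unadjusted p under 0.05 in limma. A share of all genes at that unadjusted threshold is not given here. Cep55, which acts at the last bridge between daughter cells, was lower in the arrays labelled Foxd3 (-0.38 ± 0.05, limma adjusted p = 0.000778), as was the cyclin Ccnf (-0.36 ± 0.08, limma adjusted p = 0.0242). With CA-NFATc3, Pola1 (-0.29 ± 0.06), the transcription factor Mybl2 (-0.30 ± 0.07) and the phosphatase Cdc25a (-0.29 ± 0.07) were lower, and Anln, an actin-binding protein of the cleavage furrow, was higher (0.40 ± 0.09, limma adjusted p = 0.00999). With both plasmids Cep55 (-0.35 ± 0.05) and Ccnf (-0.31 ± 0.08) were lower than with vector. Against CA-NFATc3 alone, Anln (-0.34 ± 0.09) and Cep55 (-0.19 ± 0.05) were lower and Ect2 was higher (0.27 ± 0.07, limma adjusted p = 0.0406).

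The mean of the S-phase genes minus that of the mitotic genes was 0.14, 0.14 and 0.19 with vector and 0.26, 0.13 and 0.19 in the arrays labelled Foxd3. It was 0.16, 0.04 and 0.09 with CA-NFATc3 and 0.21, 0.15 and 0.17 with both. Each plasmid group overlapped the vector arrays, and the group means were 0.16 ± 0.03, 0.20 ± 0.06, 0.09 ± 0.06 and 0.18 ± 0.03 (SD, n = 3). Within pairs of the same replicate number, the value of both minus that of CA-NFATc3 was 0.06, 0.11 and 0.08, positive in 3 of 3 pairs. Foxd3 minus vector gave 0.12, -0.01 and 0.00, CA-NFATc3 minus vector 0.02, -0.10 and -0.10, both minus vector 0.07, 0.01 and -0.02, and both minus Foxd3 -0.05, 0.02 and -0.02, so the pairs of these 4 did not share a direction.

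The mean of the mitotic genes alone was lower in 3 of 3 pairs in each comparison that adds Foxd3. Foxd3 minus vector gave -0.01, -0.07 and -0.10, and both minus CA-NFATc3 gave -0.11, -0.06 and -0.04 on the log2 scale. Of the 23 mitotic genes 20 had a negative difference in each, with medians of -0.05 and -0.06, beside 53.3% and 49.7% of all genes and medians of -0.01 and 0.00. For both minus vector the pairs gave -0.05, -0.07 and -0.08, with 17 of 23 genes negative, beside 49.6% of all genes. These are descriptions of 3 pairs, and no single mitotic gene passed in them on its brightest probe set without the block. Small negative shifts also occurred in other lists and comparisons. For CA-NFATc3 against vector, 14 of 16 S-phase genes were negative (median -0.05), beside 51.3% of all genes. Of the further replication genes 41 of 51 were negative there (median -0.07), and of the mitotic genes 11 of 23. For both minus vector, 43 of 51 further replication genes were negative.

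**Figure D4:**
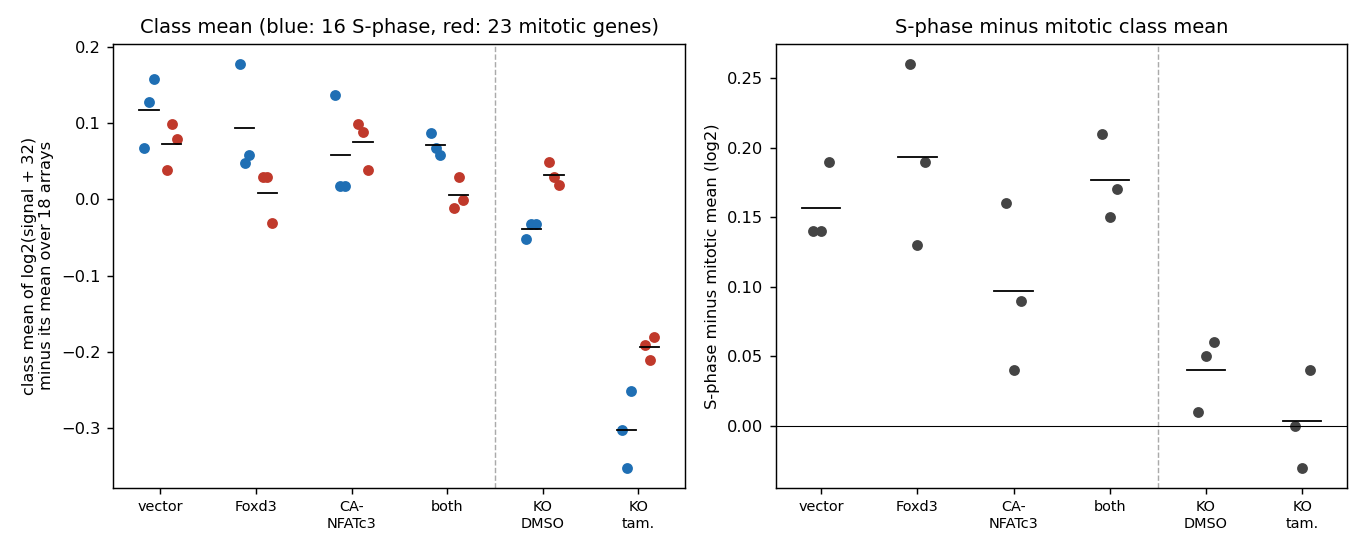
Left: mean log2(signal + 32) of the 16 S-phase (blue) and 23 mitotic genes (red) in each array, each class minus its own mean over the 18 arrays (vertical axis), by group (horizontal axis). Right: S-phase minus mitotic class mean; black lines are group means (n = 3), and both classes are lowest in the 3 tamoxifen arrays, while the difference is 0.04 ± 0.03 with DMSO and 0.01 ± 0.04 with tamoxifen.

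The difference between the tamoxifen effect and each plasmid effect was tested in a fit over all 18 arrays, an addition made after seeing the data. For tamoxifen minus the Foxd3 plasmid, 12 of the 41 genes were lower and 0 higher (29.3%), beside 8.39% lower and 10.1% higher over all genes. The 12 comprised 4 S-phase genes, 7 mitotic genes and Chek1, led by Gins2 (-1.13 ± 0.11, limma adjusted p = 7.22e-07), Plk1 (-0.61 ± 0.09, limma adjusted p = 4.66e-05), Aurkb (-0.50 ± 0.12) and Mcm2 (-0.48 ± 0.11). Against the CA-NFATc3 plasmid 14 were lower and 0 higher (34.1%), beside 8.38% lower and 7.74% higher over all genes. Against both plasmids 11 were lower and 1, Kif20a, higher, beside 9.38% and 9.5%. For the other genes a difference between the tamoxifen and plasmid effects was not shown.

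With DMSO, the knockout cells already differed in level from the vector-transfected cells for many of these genes. The groups differ in genotype and may differ in parent line and transfection, which cannot be told apart here, so these are levels only. Of the S-phase genes 8 lay lower without overlap, 3 higher and 5 overlapped, with a median log2 difference of -0.15. The largest were Gins1 (-0.89, from 5334 to 2873), Tyms (0.72), Mcm6 (-0.62) and Mcm3 (-0.61). Of the mitotic genes 8 lay lower, 5 higher and 10 overlapped, with a median of 0.04, from Nek2 (-0.79) to Mad2l1 (0.71). Over all genes 26.2% lay lower and 35.4% higher without overlap, with a median of 0.08. Gins1 was thus lower in the DMSO cells and lower again with tamoxifen, whereas Gins2 was near the vector level with DMSO (-0.13) and fell with tamoxifen.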

How the data were processed

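The authors deposited an intensity for each probe set of the 18 arrays, the linear MAS5 signal named in the submitters' processing notes, and the trimmed mean of each array is 500. Array medians ranged from 55.2 to 67.1 (transfected) and from 73.0 to 80.7 (knockout), replicates correlated at r 0.981 to 0.988 on the log2 scale, and at most 0.00443% of values were identical between a pair of arrays. The number of arrays limits the precision.

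From these, log2(signal + 32) was computed, with the brightest probe set for each gene. A gene entered a fit when at least 3 of its arrays had a signal of 65.8, the median deposited value, or more (11609 genes in 12 transfected arrays, 12093 in 6 knockout arrays). All 41 replication and mitosis genes passed. Groups were fitted without covariates in limma 3.58.1 (R 4.3.3, eBayes with trend), checked on simulated data with changes placed in randomly drawn genes. For tamoxifen against DMSO, 45.0% of log2 changes of 0.5 and 90.9% of log2 changes of 1.0 were recovered. For Foxd3 against vector these shares were 59.0% and 85.0%, so smaller changes can be missed. Tests were two-sided, with Benjamini-Hochberg adjustment over all genes tested. P-values measure the spread between these arrays, labelled biological replicates with no word on separate cultures.

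Named were called genes, or the 3 largest differences where fewer than 3 were called, and always Cdk1, Mki67, Mcm2, Pcna and E2f1, in each contrast. The members and lists were chosen with earlier results of these data known. Same-numbered transfected arrays deviated together (18 pairs, r 0.104 to 0.315), so the blocked value stands where it changes a call. Knockout pairs did not (-0.0425 to 0.0152). Alternatives were offsets of 1 and 64, filters, quantile normalization, the mean of probe sets, the block, 1 fit over 18 arrays, array weights and leaving out each array. A planned search for genes of similar pattern is not reported, since the arrays form separate clusters. Figures use matplotlib 3.10.9.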

Additional observations from a re-analysis of the deposited data

How the results depend on the processing

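The count of genes called with tamoxifen stayed within 1.5 times its main value in every setting run, as did that of the 41 replication and mitosis genes (18 to 28), and no call of theirs changed direction. With the replicate block the counts over all genes were 783 for Foxd3 against vector (334 without it), 1104 for CA-NFATc3 (680), 1122 for both plasmids (559), 1258 for both against CA-NFATc3 (711), 96 for both against Foxd3 (38) and 245 for the interaction (94). The block called 3 of the 41 genes for Foxd3 against vector and 3 for both against CA-NFATc3, and changed no other call of them in the transfected cells. In the knockout cells, where numbers do not pair the arrays, it called 28, with Cdt1 and E2f1 gained, and 4027 over all genes (4165 without it). With the mean of probe sets the counts over all genes were 220, 341 and 25 for Foxd3, both plasmids and both against Foxd3, 1 of the 41 genes, Cdc20, was called for both against CA-NFATc3, and the interaction of the S-phase minus mitotic mean was 0.10 in place of 0.05. One fit over 18 arrays gave 63 genes for both against Foxd3 and 161 for the interaction, and array weights gave 552 for Foxd3 and 172 for the interaction. The cause of these shifts was not tested.

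Leaving out 1 array gave 158 to 282 genes for Foxd3, 349 to 620 for CA-NFATc3, 322 to 461 for both plasmids, 385 to 585 for both against CA-NFATc3, 22 to 28 for both against Foxd3 and 48 to 104 for the interaction; the 41 genes gave 0 calls in each of these. The S-phase minus mitotic difference then ranged from 0.01 to 0.07 for Foxd3, -0.09 to -0.03 for CA-NFATc3, 0.00 to 0.04 for both plasmids, 0.05 to 0.11 for both against CA-NFATc3, -0.06 to -0.02 with tamoxifen and -0.05 to 0.02 for both against Foxd3, where it turned positive without the first Foxd3 array. The interaction ranged from 0.01 without the second Foxd3 array to 0.08 without the first Foxd3 or first CA-NFATc3 array, and was 0.02 without the second CA-NFATc3 array and 0.03 without the third vector array or the first array with both. With only the bases before the start, the CHR was found in 40% of mitotic promoters and 19.6% of all genes, CCAAT in 37.5% and the E2F motif in 2.16% of all genes. The offset of 32 and the scaling to a trimmed mean limit how dim probe sets such as that of Tyms can be read.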
